A study of Mus musculus with 4 samples.

Results

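Interferon-responding T cells were T cells of the mouse draining lymph node that carried transcripts of the antiviral genes Ifit1, Ifit3 and Rsad2. They were selected on these counts in 4 droplet single-cell RNA-seq libraries. A cell was taken as a member when it held at least 1 unique molecular identifier (UMI, a tag that marks 1 captured mRNA molecule) of Cd3d, Cd3e or Cd3g, none of the B cell gene Cd79a, none of the regulatory T cell gene Foxp3, and at least 2 UMIs of Ifit1, Ifit3 and Rsad2 together. This gave 633 members among 15068 T cells and 32725 cells that passed the cell filters. The remaining 13831 T cells without Foxp3 UMIs held fewer than 2 UMIs of the gate genes and are called other T cells. All mice were wild-type C57BL/6. The 2 EV libraries came from mice given a total of 100 µg of extracellular vesicles of induced pluripotent stem cells (iPSC EVs) under the skin, and the 2 control libraries from mice that received PBS by the study's methods and nothing by the sample labels. Nodes were taken on day 5 by the study's description, whereas the labels give a duration of 24 h for every library. The age of the mice and the number of animals behind a library are not given in the sources used here, so the spread between libraries may be partly technical. The libraries held 50749656 and 58100433 UMIs (control 1 and 2) and 68116085 and 70418672 UMIs (EV 1 and 2).

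Type I interferons (the alpha and beta family) bind the receptor chains Ifnar1 and Ifnar2, and the kinases Jak1 and Tyk2 then activate signal transducers such as Stat2. With Irf9 these form a complex that binds interferon-stimulated response elements in the promoters of antiviral genes. Interferon gamma signals through Ifngr1 and Ifngr2 to gamma-activated sites. In lymph nodes a minority of resting T cells is known to carry an interferon-stimulated gene programme. Ifit1 and Ifit3 encode proteins that bind foreign RNA, Rsad2 encodes viperin, an antiviral enzyme, and Isg15 encodes a ubiquitin-like modifier.

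The promoters of the gate genes are shown because the members were defined by transcripts that start there, together with that of Isg15, the gene outside the gate with the largest ratio of members to other T cells, and that of Bst2 (tetherin, which holds budding viruses at the cell surface), which was higher in EV than in control members. Each run holds 250 bases before and 50 bases from the transcription start, 5′ to 3′ on the gene's strand (RefSeq, GRCm38.p6). Capitals mark matches to the core of the interferon-stimulated response element, GAAANNGAAA, searched on both strands, so that its reverse complement is marked as well.
Ifit1, chr19:34640639-34640938, plus strand: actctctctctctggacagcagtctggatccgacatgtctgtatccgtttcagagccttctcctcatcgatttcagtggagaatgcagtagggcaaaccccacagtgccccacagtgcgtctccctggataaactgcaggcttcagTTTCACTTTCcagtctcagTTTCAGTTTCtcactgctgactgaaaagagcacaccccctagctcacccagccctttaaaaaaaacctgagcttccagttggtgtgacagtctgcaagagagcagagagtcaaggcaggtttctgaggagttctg
Ifit3, chr19:34583279-34583578, plus strand: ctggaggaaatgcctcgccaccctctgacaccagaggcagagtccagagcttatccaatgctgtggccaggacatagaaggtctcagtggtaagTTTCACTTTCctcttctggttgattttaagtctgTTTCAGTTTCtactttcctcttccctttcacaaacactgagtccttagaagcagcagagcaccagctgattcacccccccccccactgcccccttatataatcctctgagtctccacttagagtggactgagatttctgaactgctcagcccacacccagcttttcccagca
Rsad2, chr12:26456403-26456702, minus strand: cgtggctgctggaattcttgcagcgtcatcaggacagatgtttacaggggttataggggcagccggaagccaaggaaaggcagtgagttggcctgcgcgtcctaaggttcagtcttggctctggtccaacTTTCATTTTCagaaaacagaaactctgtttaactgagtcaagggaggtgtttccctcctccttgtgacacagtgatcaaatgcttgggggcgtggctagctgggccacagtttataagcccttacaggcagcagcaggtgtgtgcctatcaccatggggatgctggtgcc
Isg15, chr4:156200769-156201068, minus strand: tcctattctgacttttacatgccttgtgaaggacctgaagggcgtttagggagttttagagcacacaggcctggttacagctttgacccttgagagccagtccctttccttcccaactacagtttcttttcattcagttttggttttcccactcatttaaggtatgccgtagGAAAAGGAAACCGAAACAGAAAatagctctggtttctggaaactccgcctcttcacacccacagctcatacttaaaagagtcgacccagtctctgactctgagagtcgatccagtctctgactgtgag
Bst2, chr8:71537423-71537722, minus strand: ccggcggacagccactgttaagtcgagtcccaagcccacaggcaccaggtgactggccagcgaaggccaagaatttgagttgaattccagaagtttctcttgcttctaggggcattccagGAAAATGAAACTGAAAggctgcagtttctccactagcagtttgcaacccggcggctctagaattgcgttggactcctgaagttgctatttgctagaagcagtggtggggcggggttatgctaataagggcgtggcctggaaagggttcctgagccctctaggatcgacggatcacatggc
Ifit1 held 2 matches within 104 to 76 bases before the start and Ifit3 held 2 within 156 to 113 bases. Rsad2 held 1 match. Isg15 held 3 overlapping matches in a run of 22 bases, and Bst2 held 2 in a run of 16 bases. The same core was found for 3.99% of the 27025 genes with a promoter in the table and for 5.12% of the 2539 matched genes with a level of at least 50 CPM in members (CPM, the UMIs of a gene scaled to the total of the summed cells). Of the 35 genes counted as higher in members (described with the genes that set members apart), 27 had a promoter in the table and 15 of these (55.6%) held the core. The gamma-activated site, TTCNNNGAA, was found for 2 of these 27 genes (7.41%), against 9.55% of all genes, and for 14 of the 56 matched genes of the interferon-stimulated lists (25%), of which 31 (55.4%) held the response element core. A match is a run of letters and not a measured binding site.

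Most members carried T cell receptor transcripts that the selection did not use. Cd3e, which encodes a signalling chain of the T cell receptor complex and is itself part of the selection, stood at 486 and 397 CPM in control members and at 450 and 469 CPM in EV members, against 457, 422, 435 and 490 CPM in the other T cells of the same libraries. Trac, the constant region of the T cell receptor alpha chain, was not used in the selection and had a UMI in 93.4%, 93.3%, 95.2% and 95.9% of members (control 1, control 2, EV 1, EV 2), against 1.11% to 1.35% of B cells. Of the 10 listed T cell identity genes outside the selection, none met the rule for higher or lower in members. Isg15, which was likewise outside the gate, had a UMI in 51.6% and 51.1% of control members and in 68.0% and 74.2% of EV members, against 8.34%, 12.1%, 18.3% and 11.95% of other T cells. Median depth was 6664, 8398.5, 9382 and 8469 UMIs in members and 6449, 7501, 8759 and 8082 UMIs in other T cells.

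Some members carried transcripts of another cell type. Only 4 members, 3 in EV 1 and 1 in EV 2, had fewer than 3 CD3 UMIs, each with 1, where library medians were 12 to 18. Tyrobp and Fcer1g (adaptor chains of myeloid receptors), Lyz2 (lysozyme of macrophages), Ifitm3 and Ifitm2 together had 551 UMIs in the members of EV 1 and 547 in those of EV 2, and 532 and 464 of these lay in 3 of the 4 low-CD3 cells. The members of control 1 held 1 such UMI and those of control 2 held 86. At least 1 such UMI was found in 1, 12, 16 and 38 members (control 1, control 2, EV 1, EV 2). At least 3 were found in 0, 4, 3 and 10 members. Removal of cells with a UMI of B cell, macrophage or dendritic cell markers left 542 of the 633 members. The 7 macrophage or monocyte markers summed to 3.09, 63.5, 210 and 152 CPM in members and to 27.0, 34.3, 45.8 and 26.6 CPM in other T cells, and Lyz2 was the most abundant of them. C1qa, a complement gene of lymph node macrophages, had UMIs in 2.20% and 1.12% of control members and in none of the EV members. Adgre1 (F4/80) had UMIs in 1.36% and 0.461% of EV members and in no control member, and Cd68 in 0%, 2.25%, 1.36% and 2.30% of members. Results of EV against control are therefore also given for the 629 members with at least 3 CD3 UMIs, a limit chosen after the low-CD3 cells were seen. This limit took out only those 4 cells. B cell transcripts were no more frequent in members than in other T cells, with a Cd79b UMI in 4.40% to 9.52% of members and in 7.34% to 9.62% of other T cells. The immunoglobulin gene Ighm had a UMI in 65.9% to 78.8% of members and 61.3% to 68.6% of other T cells, so that it did not separate the cell types here. Of barcodes, 12 to 26 were shared by each pair of libraries, and none of them was a member in both.

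Gate counts formed a continuous range with no separate class. Of T cells without Foxp3 UMIs, 12735 had no gate UMI, 1096 had 1, 279 had 2, 197 had 3 to 5, 94 had 6 to 11 and 63 had 12 or more. The 41 measured antiviral genes outside the gate summed to 3239, 3374, 3763 and 3555 CPM in cells with 1 gate UMI (control 1, control 2, EV 1, EV 2), just outside the threshold. In cells with 2 gate UMIs, just inside it, they summed to 4274, 4233, 4771 and 5075 CPM. Cells with no gate UMI stood lowest in each library, at 2326, 2386, 2762 and 2595 CPM, and cells with 12 or more stood at 13540, 14300, 13762 and 19591 CPM. The EV libraries held most of the cells with many gate UMIs. Members with 12 or more numbered 1 and 3 in the controls and 12 and 47 in EV, which was 1.10% and 1.69% of control members and 8.16% and 21.7% of EV members. EV 2 stood well above EV 1 in this respect. Mean gate counts were 3.31 and 3.29 UMIs per control member and 4.90 and 7.70 UMIs per EV member.

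**Figure D1:**
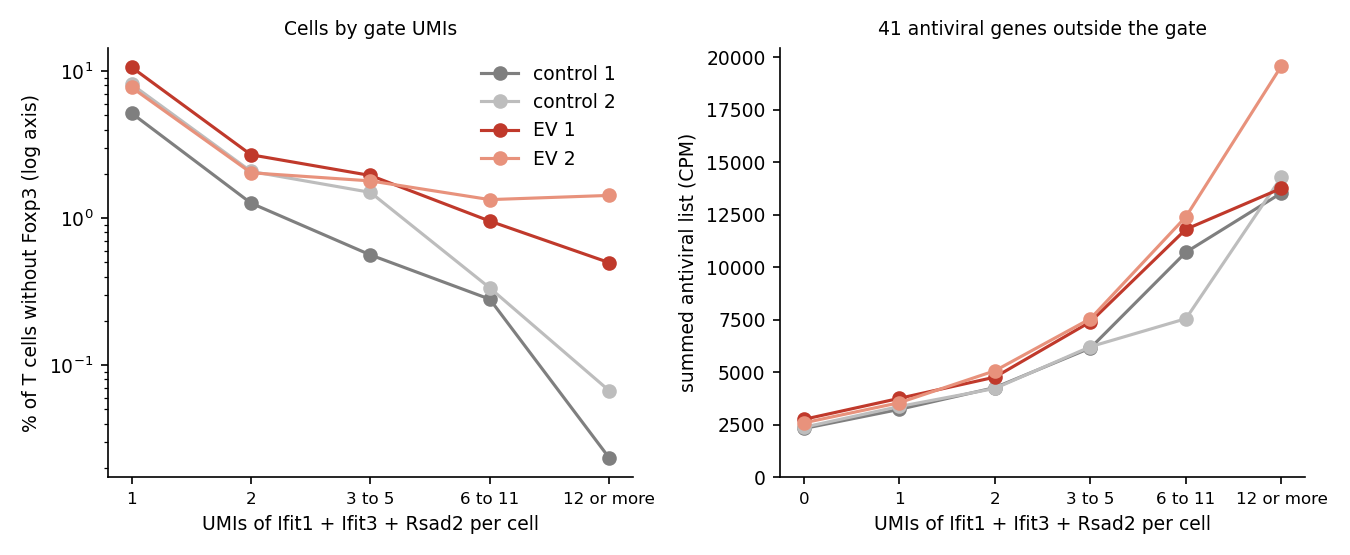
Left, the percentage of T cells without Foxp3 UMIs (log axis) at each number of Ifit1, Ifit3 and Rsad2 UMIs per cell, 1 line per library. Right, the summed CPM of 41 antiviral genes outside the gate in the same cells. The antiviral sum climbed with the gate count in every library, and the bin of 12 or more held 1 and 3 control cells and 12 and 47 EV cells.

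Each gate gene was higher in EV than in control members, although the rule chose the cells on these counts. Ifit1 had 266 and 227 CPM in control members and 290 and 411 CPM in EV members. Ifit3 had 156 and 115 CPM in controls and 168 and 310 CPM in EV. Rsad2 had 43.3 and 29.9 CPM in controls and 44.5 and 116 CPM in EV. EV 1 lay close to control 1 for each gene. Among members with at least 3 CD3 UMIs the groups overlapped for Rsad2, but not for Ifit1 or Ifit3. No test is given, since these counts chose the cells. Other T cells held 4.22 to 7.26 CPM of Ifit1 and 0.419 to 0.621 CPM of Rsad2, levels that the rule itself limits. Over all T cells, a measure that does not depend on the threshold, the 3 genes summed to 18.2 and 26.5 CPM (controls) and to 44.5 and 67.8 CPM (EV; 2.51-fold, exact two-sided permutation p = 0.33, the smallest that 2 against 2 libraries allow).

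Members were a larger share of T cells in both EV libraries than in either control. They made up 2.03% of T cells in control 1 (91 of 4486 cells, exact 95% interval 1.64% to 2.48%) and 3.83% in control 2 (178 of 4652, 3.29% to 4.42%). In EV 1 they made up 5.85% (147 of 2513, 4.96% to 6.84%) and in EV 2 6.35% (217 of 3417, 5.56% to 7.22%). The intervals cover counting error only. The mean share was 2.93% ± 1.27 in control and 6.10% ± 0.354 in EV (SD, n = 2 libraries each), a ratio of 2.08, with exact two-sided permutation p = 0.33, which this design cannot go below. Median depth of members and of other T cells was higher in both EV libraries than in either control. Members of control 2 and EV 2 were close (8398.5 and 8469 UMIs). With every cell thinned to 2000 UMIs the shares were 0.333%, 0.668%, 1.48% and 2.29% (control 1, control 2, EV 1, EV 2) and the ratio was 3.77, with members left in small numbers (15, 31, 39 and 80), and 9 to 21 T cells a library were too shallow to enter. As a share of all filtered cells the members stood at 1.12% and 2.26% in control and 1.80% and 2.54% in EV, and the groups overlapped, since T cells were fewer among EV cells.

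**Figure D2:**
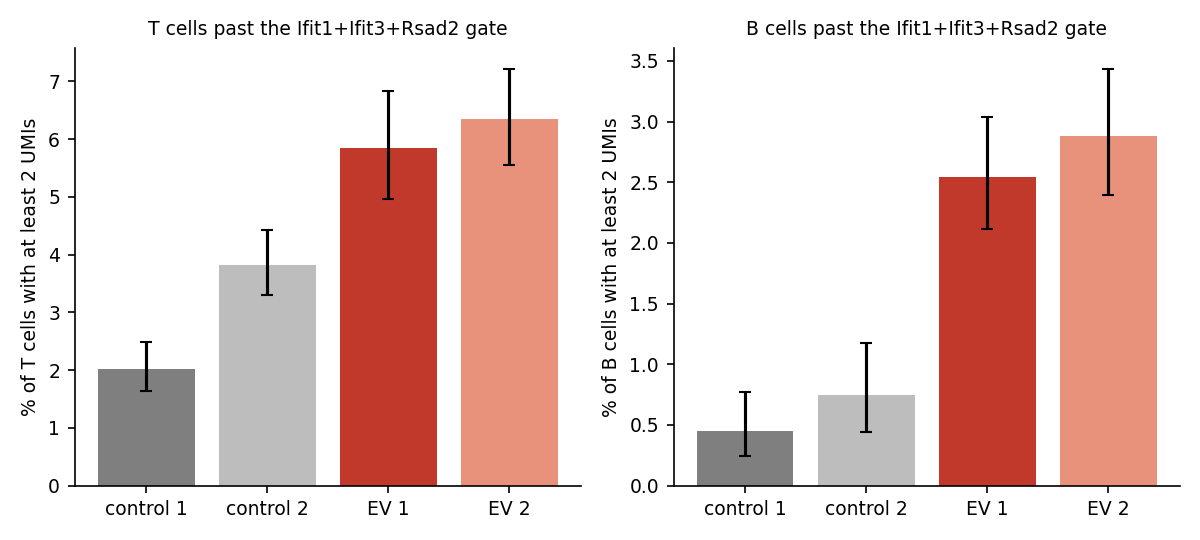
Percentage of T cells that met the rule (left) and of B cells (right), both with at least 2 UMIs of Ifit1, Ifit3 and Rsad2 in each library, with exact 95% binomial intervals as error bars. The 2 EV libraries stand above both controls in T cells (5.85% and 6.35% against 2.03% and 3.83%) and in B cells (2.55% and 2.88% against 0.452% and 0.748%).

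B cells passed the same gate less often in every library. B cells, defined by Cd79a UMIs without any CD3 UMI, passed in 0.452% and 0.748% of control and 2.55% and 2.88% of EV cells (4.53-fold, exact permutation p = 0.33). Their median depth was 4123, 4880, 5795 and 5602 UMIs, below that of T cells. The log2 ratio of the T cell share to the B cell share was 2.17 and 2.35 in control and 1.20 and 1.14 in EV, without overlap (exact permutation p = 0.33, the smallest possible). At 2000 UMIs per cell the B cell shares were 0.277%, 0.251%, 1.09% and 1.08%, and the contrast between T and B cells was lost. The log2 ratio of their shares was then 0.27 and 1.41 in control and 0.44 and 1.09 in EV, with overlap (exact permutation p = 1), and the EV to control ratio 4.11 in B cells and 3.77 in T cells. T cells and B cells can both answer to interferon, so neither gives a background level for the other.

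Most of the genes that set members apart from other T cells were in the lists of interferon-stimulated genes. A gene was counted as higher with at least 50 CPM in the summed members and at least a 2-fold ratio (pseudocount 5 CPM) in each of the 4 libraries, and as lower in the same way. Of 3176 genes outside the rule with that level, 35 (1.10%) were higher, and of 3111 genes with 50 CPM in other T cells, 0 (0%) were lower. The number of higher genes was 55 without control 2, 61 at a threshold of 3 gate UMIs and 5 at 1 gate UMI. Since the rule chose the cells on gate counts, these values are a description without a test. Of the 35 genes, 27 belonged to the antiviral, regulator, GTPase or surface lists and 8 to no list. Isg15 had 189 and 187 CPM in control members and 341 and 536 CPM in EV members, against 14.4, 19.9, 30.4 and 19.1 CPM in other T cells. The mean log2 ratio of members to other T cells was 3.51 ± 0.67 (SD over 4 libraries). Usp18, which removes Isg15 from proteins and dampens the type I receptor, had 108 and 98.5 CPM in controls and 146 and 263 CPM in EV members, with a mean log2 ratio of 2.69 ± 0.61. Rtp4, a chaperone of receptor transport with antiviral activity, had 158 and 114 CPM in controls and 183 and 216 CPM in EV members, with a mean log2 ratio of 2.44 ± 0.37. In all 3 genes every library's members lay above every library's other T cells.

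Further genes of the top 15 fell into a few roles. RNA sensors and effectors were Ifih1 (MDA5, mean log2 ratio 1.94), Eif2ak2 (the kinase PKR, 1.94), Ddx60 (1.94) and the 2'-5' oligoadenylate synthetase family members Oasl2 (2.48) and Oas3 (1.95). Irf7, the transcription factor that amplifies interferon production, had a ratio of 2.05, and Zbp1, a sensor of Z-form nucleic acid, 1.80. Isg20, an exonuclease, reached 2.12, and Slfn5 of the Schlafen family reached 2.06. Rnf213, a large ubiquitin ligase, reached 1.99, Xaf1 1.84 and the guanylate-binding protein gene Gbp6 1.81. By detection, the genes outside the rule most like the gate were Rtp4, Isg15, Usp18, Xaf1, Rnf213, Zbp1, Ddx60, Ifi213, Ifi214 and Irf7. The share of cells with a UMI was higher in members by a mean of 49.9 percentage points for Rtp4 and 32.7 for Irf7 over the 4 libraries.

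**Figure D3:**
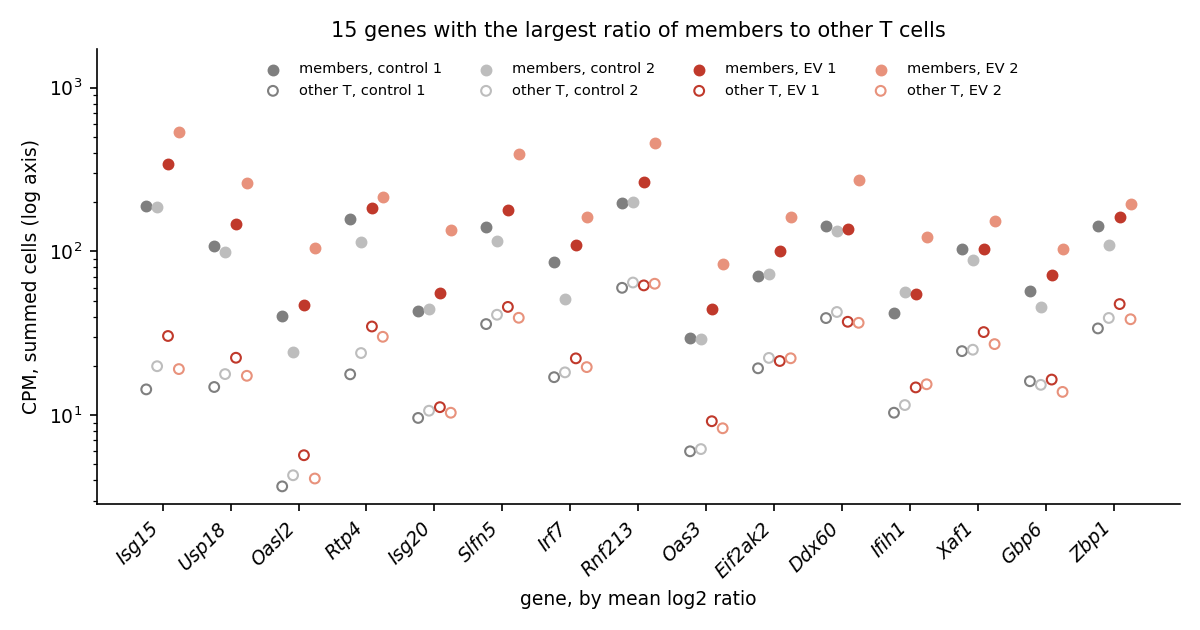
CPM (log axis) of the 15 genes with the largest mean log2 ratio of members (filled) to other T cells (open) among the genes counted as higher, leaving out the gate genes and 2 numbered genes without a symbol of their own, 1 point per library. For Isg15 the members lie between 187 and 536 CPM and the other T cells between 14.4 and 30.4 CPM.

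Among the lists, the difference from other T cells was largest for antiviral genes and small for antigen presentation. The antiviral list had 17 of 41 measured genes higher, with a median log2 ratio of 1.47 over the 29 with at least 50 CPM, beside -0.01 for all such genes. Its most abundant members were Ifi27l2a (mean log2 ratio 1.34), Ifi203 (1.11), Mndal (0.93) and Slfn2 (0.44). Sensors and regulators had 7 of 13 higher (median 1.31), among them Herc6, the Isg15 ligase (1.62), Ddx58, which encodes the RNA sensor RIG-I (1.21), and Usp18. Sp100, a nuclear body gene and the most abundant of the list, stood at 0.64. Guanylate-binding and immunity-related GTPases had 2 of 16 higher, Gbp6 and Irgm1 (median 1.20), with Ifi47 at 0.84, Gbp7 at 1.44, Igtp at 1.40 and the transcription factor gene Irf1 at 0.34. MHC class I presentation genes had 0 of 18 higher (median 0.27), with H2-K1 at 0.07, B2m at 0.15, H2-D1 at 0.04 and the immunoproteasome gene Psmb8 at 0.40. Of 7 Ly6 and other surface genes only Lgals3bp was higher, and Ly6e (0.46), Ly6c2 (0.64), Ly6a (1.21) and Lgals9 (0.70) were below the rule. Reads of near-identical copies such as Ifit3 and Ifit3b or the H2-Q genes cannot be told apart with certainty in 3′ counts.

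No listed naive, memory or effector, activation or inhibitory gene met the rule for higher or lower in members. All 10 naive genes were measured above 50 CPM and had a median log2 ratio of -0.04, with Lef1 at -0.04, Satb1 at 0.07, Il7r at -0.24 and Klf2 at -0.12. Memory or effector genes had a median of 0.11 over 8 genes, with Nkg7 at 0.22, Ccl5 at -0.50 and Itgb1 at 0.08. Of activation genes, Cd69, an early marker that is itself interferon-responsive, stood at 0.25, Junb at 0.03, Icos at 0.08 and Jun at -0.12. Inhibitory genes had a median of 0.52 over 3 genes, above that of the naive and memory lists, with Ctla4 at 0.52, Cd274 (PD-L1) at 0.54 and Btla at 0.03. Proliferation genes were scarce, with Stmn1 at 18.6 CPM, Top2a at 4.60 CPM and Mki67 at 1.06 CPM in the pooled members, against 27.9, 9.02 and 3.77 CPM in other T cells. Natural killer and gamma-delta genes were scarce as well, with Gzma at 7.43 CPM and Trdc at 17.2 CPM in members. The natural killer receptor gene Ncr1 had no UMI in members.

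Both T cell lineages were present among the members. By UMIs, 201 members carried Cd4 and not Cd8a, 325 carried Cd8a and not Cd4, 6 carried both and 101 neither. The CD8 share of single-positive members was 55.3% and 65.6% in control and 60% and 62.5% in EV libraries, against 55.1%, 52.8%, 52.3% and 51.7% among other T cells. The share was higher in members of every library, by a mean of 7.82 ± 5.54 percentage points (SD, n = 4), although control 1 differed by 0.128 points, and not in every library with a threshold of 3 gate UMIs, without Scrublet doublets or with at least 3 CD3 UMIs. The exact two-sided sign-flip test gave p = 0.13, the smallest that 4 libraries allow. At 2000 UMIs per cell, with 15 to 80 members a library, the mean difference was -10.1 points, and control 1 alone stood at -57.4 points. Between EV and control members the CD8 share differed by 0.837 points with overlapping groups (exact permutation p = 1). Within lineages, members made up 2.37% and 3.13% of control and 5.07% and 5.52% of EV CD4 cells, and 2.39% and 5.20% of control and 6.79% and 8.34% of EV CD8 cells. The ratio of EV to control was 1.93 in CD4 and 1.99 in CD8 cells, and in neither lineage did the groups overlap (exact permutation p = 0.33 in each).

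CD4 members carried more antiviral RNA than CD8 members in all 4 libraries. The antiviral list summed to 6996 and 6146 CPM in control CD4 members and 8857 and 11906 CPM in EV CD4 members. In CD8 members it summed to 4892 and 4958 CPM in controls and 6393 and 9080 CPM in EV. Other T cells had the same order in each library, so that it was not particular to members. The lineages were closer there, at 2549 to 3193 CPM in CD4 and 2307 to 2624 CPM in CD8 cells. Memory or effector genes showed the reverse order, with 237 to 499 CPM in CD4 and 1127 to 2816 CPM in CD8 members, as in other T cells, with 349 to 503 CPM in CD4 and 1406 to 1767 CPM in CD8 cells.

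**Figure D4:**
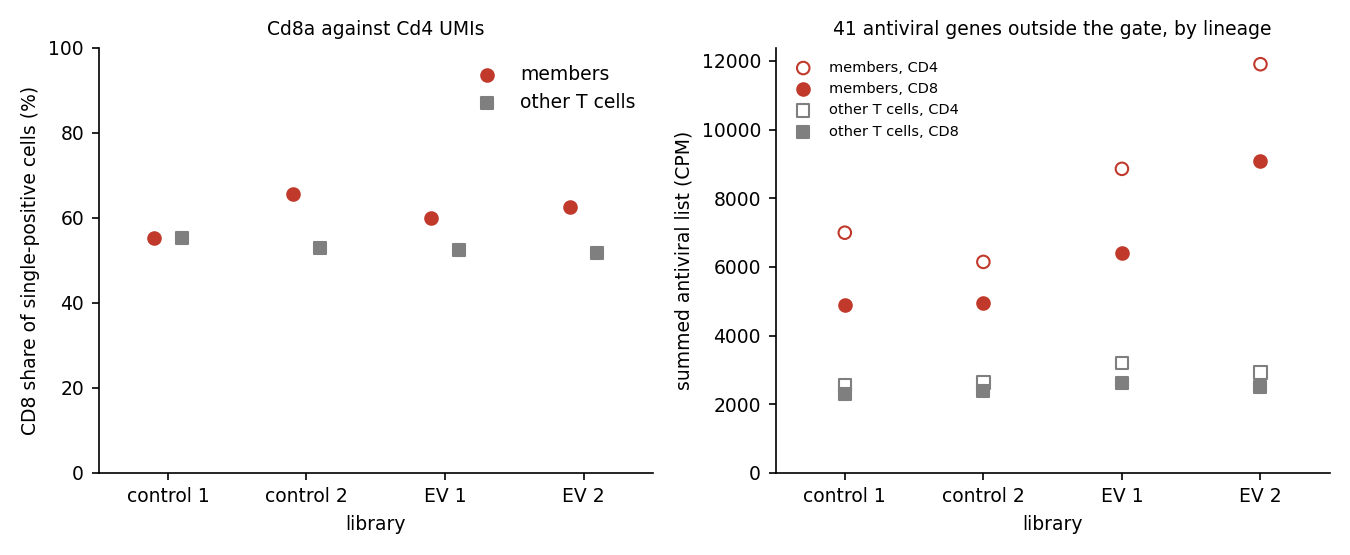
Left, the CD8 share of single-positive cells (%) in members (circles) and other T cells (squares) of each library. Right, the summed CPM of 41 antiviral genes in CD4 (open) and CD8 (filled) cells. Members exceed other T cells in both lineages, and CD4 members (6146 to 11906 CPM) exceed CD8 members of the same library (4892 to 9080 CPM).

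Interferon transcripts were nearly undetected in the whole node. No UMI of Ifna1, Ifna2, Ifna4, Ifna5, Ifna6, Ifna7, Ifna9, Ifna11, Ifna12, Ifna13, Ifna14, Ifna15, Ifna16, Ifnb1, Ifne, Ifnl2 or Ifnl3 was found in any of the 32725 filtered cells. Ifnab had 0, 2, 0 and 2 UMIs, Ifnz 2, 2, 2 and 6, and Ifnk 14, 12, 2 and 9 (control 1, control 2, EV 1, EV 2). Ifng, the type II ligand made by T cells, had 48, 59, 33 and 40 UMIs, of which the members held 0, 0, 2 and 4. Receptor genes were alike in members and other T cells. Ifnar1 had 55.7 and 42.6 CPM in controls and 60.6 and 47.6 CPM in EV members (mean log2 ratio to other T cells 0.06), Ifnar2 stood at a ratio of 0.16, Ifngr1 at 0.08, Ifngr2 at -0.13 and Il10rb, shared with the lambda receptor, at 0.10. Ifnlr1, the specific chain of the lambda receptor, had a pooled level of 0.177 CPM in members. Of the signalling genes, Stat2 (1.25) and Irf9 (0.81), which are themselves interferon-stimulated, were raised in members without reaching 2-fold in every library, and Jak1 (-0.00), Jak2 (0.11) and Tyk2 (0.03) were near the level of other T cells.

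In edgeR's quasi-likelihood test across 8839 genes in summed members, 50 genes (0.566%) were higher and 6 (0.0679%) lower in EV, at an adjusted p under 0.05. Among members with at least 3 CD3 UMIs, 47 of 8788 genes (0.535%) were higher and 10 (0.114%) lower. The fits shared 41 calls. In other T cells, 40 of 13915 genes (0.287%) were higher and 4 (0.0287%) lower. Counts of calls moved with the libraries used, in members from 30 without control 2 to 346 without EV 1 and in other T cells from 97 without control 1 to 2835 without EV 1. DESeq2 called 32 genes in members and 253 in other T cells.

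Of 74 listed interferon-stimulated genes outside the gate, 67 were tested and 10 were called higher in EV members, none lower. Their median log2 difference was 0.67, beside -0.00 for all genes tested, and all 67 had a positive difference. With at least 3 CD3 UMIs, 65 were tested, 13 were called higher and the median was 0.65. In other T cells 1 of 68, Ifi47, was called and the median was 0.19. Members were chosen on gate counts, and EV members held more gate UMIs, so that the level of related genes is not independent of the selection.

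Isg15 rose in EV members (log2 difference 1.21 ± 0.18 SE, adjusted p = 0.00614), from 189 and 187 CPM to 341 and 536 CPM. Oas2, an RNA sensor that makes 2'-5' oligoadenylates, had 12.4 and 13.3 CPM in controls and 46.6 and 70.7 CPM in EV members, a log2 difference of 2.16 ± 0.29 SE (adjusted p = 0.00366). Bst2 had 161 and 135 CPM in controls and 261 and 439 CPM in EV members, a log2 difference of 1.25 ± 0.20 SE (adjusted p = 0.00886). In these genes the groups did not overlap, which held for 39.9% of all genes tested, and EV 2 was highest. Herc6 rose by 1.05 and Irf7 by 1.07 on the log2 scale (adjusted p = 0.0220 and 0.0423). Slfn3 of the Schlafen family rose by 2.38 and the Ifit3 paralogue Ifit3b by 1.79 (adjusted p = 0.0124 and 0.0112), and each lost its call without control 2 (adjusted p = 0.0873 and 0.141). Slfn3 stood at 1.75 without EV 2. Socs1, the feedback inhibitor of Jak kinases, had 29.4 and 42.6 CPM in controls and 148 and 83.7 CPM in EV members, with EV 1 highest (log2 difference 1.58 ± 0.28 SE, adjusted p = 0.0151). Usp18, Slfn5, Stat2, Phf11b and Ifi203 passed the test among members with at least 3 CD3 UMIs, at log2 differences of 0.71 to 1.14. Bst2 and Phf11b were named after their values were seen.

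Guanylate-binding and immunity-related GTPases had 0 of 16 genes called in members (median 0.63) and 1, Ifi47, with at least 3 CD3 UMIs. MHC class I presentation had 0 of 18 called in either direction, with a median log2 difference of 0.12. H2-K1 was at 1609 and 1575 CPM in controls and 1829 and 1883 CPM in EV members, and B2m at 1349, 1407, 1449 and 1363 CPM. Of the surface genes, Ly6a (Sca-1) rose by 0.89 and Ly6c2 by 0.93 on the log2 scale (adjusted p = 0.0141 and 0.0124), 2 of 7. Interferon receptors had 0 of 5 tested genes called. Ifngr1 had 89.7 and 104 CPM in controls and 258 and 138 CPM in EV members, a log2 difference of 0.99 (adjusted p = 0.0979). Of 6 signalling genes none was called in all members, and Stat2 was called with at least 3 CD3 UMIs (log2 difference 1.09, adjusted p = 0.0306).

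**Figure D5:**
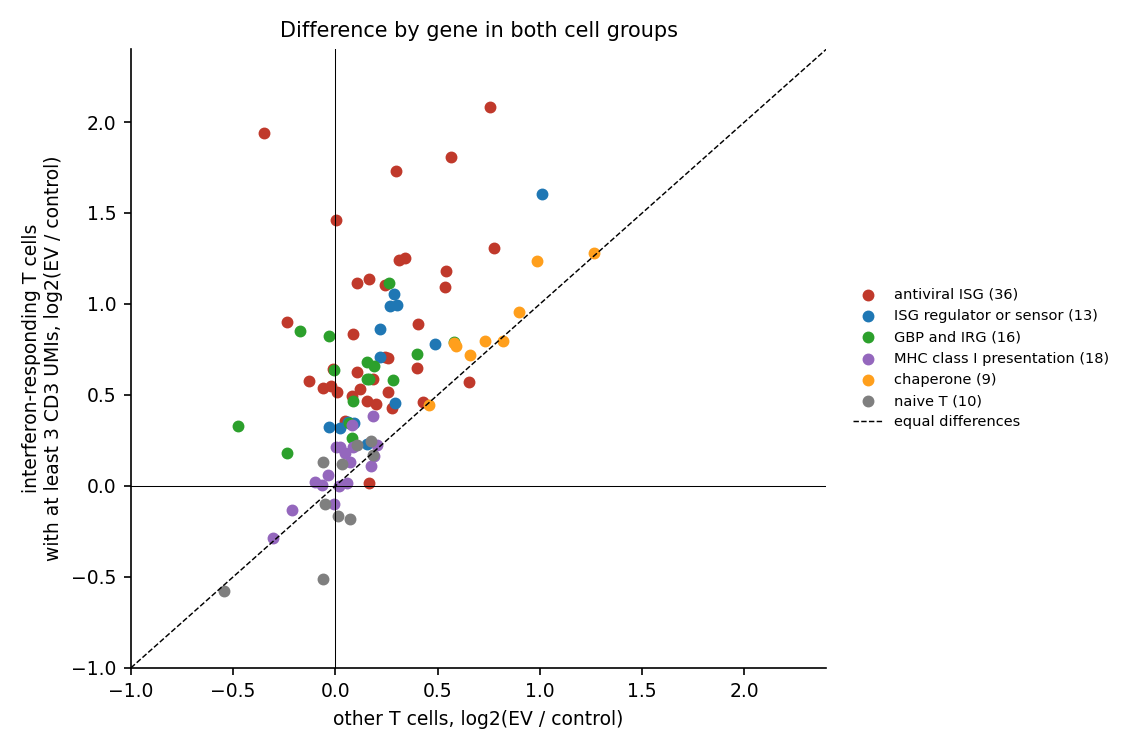
Log2 difference of EV against control for genes of 6 lists, in other T cells (x axis) and in members with at least 3 CD3 UMIs (y axis), 1 point per gene, with the line of equal differences. The points come from the same 4 libraries. Antiviral genes lie mostly above the line (medians 0.68 in members and 0.20 in other T cells), and chaperones lie along it (0.80 and 0.82).

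Chaperone genes rose in members and other T cells alike. Of 9 tested, 6 were called higher in members, with a median log2 difference of 0.79, and 6 of 11 in other T cells, with a median of 0.82. Hspa8, a constitutive HSP70, had 684 and 607 CPM in controls and 1239 and 1334 CPM in EV members (log2 difference 0.99 ± 0.14 SE, adjusted p = 0.00427). Hsp90ab1 rose by 0.71, Dnaja1 by 0.79, Hsph1 by 1.26 and Stip1 by 1.23 on the log2 scale, and Hspe1, the mitochondrial co-chaperonin, stood at 0.43 without a call. Hsph1 was no longer called without control 1 (adjusted p = 0.102), by DESeq2 (0.100) or at a threshold of 3 gate UMIs (0.0864), and stood at 1.85 without control 2, and Stip1 was named after its values were seen. The difference of the EV effect between members and other T cells was not called for any of the 11 chaperones (median 0.09).

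Cdk8, the kinase of the Mediator module, fell in EV members, from 826 and 494 CPM to 251 and 84.7 CPM (log2 difference -1.98 ± 0.35 SE, adjusted p = 0.0141, 0.749 with DESeq2). The log2 difference was -2.96 without EV 1 and -1.33 without EV 2. In other T cells the difference was -1.79 (adjusted p = 0.127), and the difference between the cell groups was -0.16 (adjusted p = 0.956). The other 6 genes of the module were not called, with Cdk19 at 132 and 109 CPM in controls and 94.7 and 121 CPM in EV members, Med13l at a log2 difference of -0.09 and Med13 at 0.05. Abundant nuclear or rRNA-like transcripts moved in the same direction as Cdk8. The 5 listed summed to 13252 and 14129 CPM in control, 7745 CPM in EV 1 and 1431 CPM in EV 2 members, and to 13548, 13809, 7946 and 1329 CPM in other T cells. EV 2 stood apart in this measure. Cmss1 was at 3148, 2387, 1227 and 139 CPM, AY036118 at 705, 661, 368 and 33.6 CPM, Camk1d at 732, 715, 572 and 396 CPM and Lars2 at 198, 245, 152 and 39.6 CPM in members. Their part in the result for Cdk8 was not tested.

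The other falls were Rgcc, a regulator of the cell cycle, the histone gene Hist1h4d, the cold-inducible RNA-binding gene Cirbp, the transporter gene Mfsd4a and Fhit. Rgcc had 128 and 170 CPM in controls and 62.7 and 66.7 CPM in EV members, without overlap (log2 difference -1.25 ± 0.18 SE, adjusted p = 0.00427). Hist1h4d fell from 49.5 and 44.5 CPM to 15.3 and 6.02 CPM, Cirbp by 1.26, Mfsd4a by 1.45 and Fhit by 0.72 on the log2 scale. Without control 2, Rgcc (adjusted p = 0.100) and Fhit (0.381) were no longer called, and without control 1, Mfsd4a (0.102) was not. Neither Mfsd4a (0.138) nor Fhit (0.110) was called by DESeq2, nor without upper cell limits and with a mitochondrial limit of 5%. Mfsd4a also lost its call at a threshold of 3 gate UMIs (0.190) and without cells holding other lineage markers (0.0766). With at least 3 CD3 UMIs, Il31ra (log2 difference -2.81), the mitochondrially encoded mt-Atp8 (-1.13) and Mir142hg (-0.65) were also lower in EV. Among all members these 3 genes were not called (adjusted p = 0.0897, 0.0746 and 0.0606), and mt-Atp8 was not called by DESeq2 (0.137). Their size moved with EV 2 for Il31ra (-4.51 without EV 1, -1.60 without EV 2) and mt-Atp8 (-1.69 and -0.66), as did that of Hist1h4d (-2.97 and -1.57).

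Several of the largest log2 differences between EV and control members were in genes of myeloid cells. For those with UMIs given here, most of the UMIs lay in the low-CD3 cells. Alox5ap, Sirpa and Ifi204 had no UMI in control members and 42, 34 and 36 UMIs in EV members. Against a floor of 3 control UMIs over the group this was at least 9.06-fold, 7.33-fold and 7.76-fold higher in EV. Outside the low-CD3 cells 2, 1 and 13 of these UMIs remained. Ifi204 was then still at least 2.84-fold higher against the same floor, with 12 of its 13 UMIs in EV 2. Fcer1g had 2 UMIs in control and 136 in EV members (ratio 44.0, counting interval 11.9 to 367), of which 8 remained. Ifitm2 had 1 and 79, of which 3 remained, and Cybb 1 and 57, of which 7 remained, and Csf1r, the receptor for macrophage colony-stimulating factor, 1 and 39, of which 1 remained. Ifitm3, an interferon-induced membrane protein gene, had 1 UMI in control and 191 in EV members, of which 61 remained, 60 of them in EV 2. Tyrobp had 0 and 4.45 CPM in controls and 88.4 and 42.1 CPM in EV members. Of the genes named here, none was tested among members with at least 3 CD3 UMIs, since their counts did not pass the filter. Cd74 and Lyz2, called higher in all members (log2 difference 1.66 and 2.16), lost their calls there, with log2 differences of 0.93 and -2.62 (adjusted p = 0.207 and 0.0819).

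With those cells left out, rises outside the interferon lists included Chst11 (log2 difference 1.93), the co-chaperone gene Ahsa2 (1.69), the long non-coding RNA gene Ifngas1 next to Ifng (1.44) and Ppa1, a pyrophosphatase (1.32). Ifngas1 had 21.7 and 41.9 CPM in controls and 87.0 and 101 CPM in all EV members, and Ppa1 35.6 and 33.0 CPM against 82.1 and 86.2 CPM, without overlap in either gene. Ppa1 and Ahsa2 were not called without control 2 (adjusted p = 0.100 and 0.122), and Ahsa2 was not called by DESeq2 (0.171) or without cells holding other lineage markers (0.0661) either. At a threshold of 3 gate UMIs, Ahsa2 (0.178), Chst11 (0.0864) and Ifngas1 (0.0885) lost their calls. Without control 2 the log2 differences of Chst11 and Ifngas1 were 3.03 and 2.12. Il2rb, the beta chain of the interleukin-2 and interleukin-15 receptors, was called only with at least 3 CD3 UMIs (log2 difference 0.92, adjusted p = 0.0449). Of the other memory or effector genes Ly6c2 was called, whereas Ccl5 had 55.7 and 166 CPM in controls and 423 and 173 CPM in EV members, EV 2 lying close to control 2 (adjusted p = 0.181). Il2ra was at 17.0 and 15.9 CPM in controls and 7.66 and 10.0 CPM in EV members (adjusted p = 0.481). Gzmb had 1.55, 3.81, 0.696 and 0.501 CPM and Mki67 0, 1.91, 0 and 1.5 CPM, too few to be tested. Naive genes had 0 of 10 called and activation genes 0 of 11.

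The EV effect in members was compared directly with that in other T cells, in 1 fit over both cell groups with library as a block. Of 12949 genes, 29 (0.224%) had a larger log2 difference in members and 2 (0.0154%) a smaller one. Of 68 listed interferon-stimulated genes 8 had a larger difference, with a median of 0.56 beside 0.01 for all genes, and 3 of them, Bst2, Herc6 and Ifit1bl1, were called with at least 3 CD3 UMIs. The rule held other T cells to fewer than 2 gate UMIs, whereas EV members held more gate UMIs than control members. For genes that follow the gate the difference is thus not independent of the selection. Its p-values cannot show a stronger response in members. For Bst2 the log2 difference was 1.25 in members and 0.34 in other T cells, 0.97 ± 0.18 SE apart (adjusted p = 0.00426), and for Herc6 1.05 and 0.29, 0.79 ± 0.15 SE apart (adjusted p = 0.00442). Ly6c2 differed by 0.77 (adjusted p = 0.00105) and Rnf213 by 0.84 (adjusted p = 0.00426). Rgcc fell further in members (log2 difference between the effects -0.76, adjusted p = 0.0180), a call lost without control 2 (adjusted p = 0.548). Isg15, Oas2 and Irf7 rose in members, and the difference from other T cells was not called (adjusted p = 0.228, 0.211 and 0.164). With at least 3 CD3 UMIs in both cell groups, 12 genes were called, all 12 among the first 31, and Bst2, Herc6, Ly6c2, Rnf213, Ppa1, Ccl4 and Rgcc were among them. These genes were named partly after their values were seen.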

How the data were processed

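Draining lymph node cells of 2 control and 2 EV replicates were measured by 10x 3′ single-cell RNA-seq. The authors aligned reads to mm10 with Cell Ranger 7.1.0 and deposited UMI counts per gene and barcode, without normalization (34323 barcodes). The handling of intronic reads and doublets is not given in the sources used here. Cells with 200 to 5000 genes, at most 20000 UMIs and under 10% mitochondrial UMIs were kept, and doublets were not removed. Raw counts were summed per library and cell group and compared with edgeR 4.0.16 (quasi-likelihood, TMM, filterByExpr, two-sided, Benjamini-Hochberg over all genes). Shares were compared with exact permutation tests. CPM are per library and cell group. Python 3.11.15, scanpy 1.11.5 and R 4.3.3 were used, with DESeq2 1.42.0 as an alternative. Scripts were tested on simulated data.

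The members and gene lists were chosen with earlier results of these data known. Named genes were the genes of the rule, the 15 largest ratios to other T cells, the 10 largest rises and falls of called genes without overlap, 5 a direction for the difference of the effect, the 4 most abundant genes of each list, all interferon ligands, receptors and signalling genes, Cdk8, Cdk19, Il2ra, Ifng, Gzmb and Mki67, and the 10 largest differences in detection. Others are said to be named after their values were seen. Numbered genes without a symbol of their own were counted and not named. Alternatives were thresholds of 1 and 3 gate UMIs, cells thinned to 2000 UMIs, Scrublet (expected rate 6%), removal of cells with a UMI of B cell, macrophage or dendritic cell markers, among them Cd79b, Ms4a1, Ebf1, Pax5, C1qa, C1qb, Csf1r, Adgre1, Flt3, Itgax, Xcr1, Fscn1 and Siglech, other cell filters, another gate, DESeq2, no filter on counts, other library sizes, a replicate block and each library left out. Some genes are not reported here.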

Additional observations from a re-analysis of the deposited data

Results flagged for a closer look

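Of 12949 genes, the difference of the EV effect between members and other T cells was called larger for 29 (0.224%) and smaller for 2 (0.0154%). The naming rule took called genes first and filled up with uncalled ones. That 7 of its 10 genes were called is thus set by the rule and is not a result. Rgcc had a smaller value in members (log2 difference between the effects -0.757, adjusted p = 0.0180) and was called with at least 3 CD3 UMIs, but not without control 2 (-0.559, adjusted p = 0.548). Ccl4, a chemokine of effector T cells, had a fitted difference of 10.1 (adjusted p = 0.0146), with 0 UMIs in control and 18 in EV members, at least 3.88-fold higher against a floor of 3 UMIs over the group, and was called with at least 3 CD3 UMIs as well, but not without control 1 (adjusted p = 0.0998). Klra1 had a fitted difference of -9.81 (adjusted p = 0.0343) and rested on control 2, which held 19 UMIs where the other libraries' members held none (without 1 library the fitted value ranged from -10.4 to -0.38, the latter without control 2), and with at least 3 CD3 UMIs it had the same UMIs, a fitted difference of -9.93 and adjusted p = 0.0851. Alox5ap (10.6, adjusted p = 0.0281), Ifitm3 (5.29, adjusted p = 0.0290), Cybb (4.97, adjusted p = 0.0290) and Fcer1g (4.89, adjusted p = 1.70e-05) were no longer called with at least 3 CD3 UMIs. Fitted values against a group at 0 depend on the prior count and are no bounds. Members and other T cells were split on gate counts, so differences in genes that follow the gate are not independent of the selection.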

How the results depend on the processing

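The higher share of members among T cells in EV kept its direction under every alternative run, at 1.38 to 5.62 percentage points. As a share of all filtered cells the difference was 0.486 points, with overlapping groups (exact permutation p = 0.67). The exact permutation tests have a floor of p = 0.33. Leaving out a library gave 2.27 to 4.07 points for members, 1.95 to 2.28 for B cells and 22.2 to 45.4 CPM for the gate genes over all T cells. The CD8 share of EV minus control members turned to -1.29 points with a threshold of 3 UMIs, -0.702 with 1 UMI and -0.864 without cells holding other lineage markers, and ranged from -4.31 to 5.99 points with a library left out, and stood at 35.0 points in thinned cells, where the difference from other T cells turned to -10.1 points. Genes higher in members numbered 61 at 3 gate UMIs and 5 at 1 gate UMI, and 31 to 55 with a library left out, the most without control 2. Calls in members moved from 56 to 35 at 3 gate UMIs, 102 without Scrublet doublets, 34 without other lineage markers, 32 by DESeq2 and 286 without a filter on counts, and ranged from 30 to 346 with a library left out. In other T cells 44 calls became 253 by DESeq2, 1171 without the filter, 144 with at least 3 CD3 UMIs and 97 to 2835 with a library left out. Calls of the difference of the effect moved from 31 to 12 with at least 3 CD3 UMIs, 63 without the filter, and 35 to 123 with a library left out. The cause was not tested. Where 1 library was left, it was assumed to vary like the other group. The listed interferon-stimulated genes kept a positive median, 0.43 (without EV 2) to 0.89. Of 368 alternative values for 29 named genes, 33 lost and 17 gained a call, and 0 changed direction, and of 60 for the difference of the effect, 13 lost and 6 gained one.

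With a replicate block, 201 genes were called in members and 642 in other T cells. Deviations of libraries with the same number correlated at -0.00 in members and -0.09 in other T cells. With 2 libraries a group the crossed numbering gives the same value with the opposite sign. The correlation therefore cannot show whether libraries with the same number were paired.

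With 91 to 217 members a library genes near 10 CPM rested on few UMIs. Shares depend on depth, as the thinned values show.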

Other observations

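Foxp3-positive T cells, which the rule left out, also held cells past the gate. They numbered 3 and 5 in control and 7 and 3 in EV libraries, or 1.43%, 2.91%, 6.93% and 2.48% of the Foxp3-positive T cells, with overlapping groups. A gate on Isg20, Usp18 and Oasl2 in place of Ifit1, Ifit3 and Rsad2 took 3.61% and 5.35% of control and 9.35% and 8.28% of EV T cells, and 1.53%, 1.79%, 5.03% and 5.40% of B cells. EV libraries stood above both controls in T and B cells with this gate too (exact permutation p = 0.33, the smallest possible). Within members, 30.9% of cells in EV 2 had UMIs of 1 gate gene alone, against 54.9% and 55.1% in control and 46.9% in EV 1, and all 3 genes were seen in 29.0% of EV 2 members and in 5.49%, 8.43% and 12.9% of the others. Rsad2 had a UMI in 16.5% and 17.4% of control, 17.7% of EV 1 and 36.9% of EV 2 members.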
